A study of Mus musculus with 6 samples.

Results

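Cyclic nucleotide signalling genes were followed in cultured microglia treated with extracellular vesicles (EVs) of neural stem cells. The members were taken by symbol: phosphodiesterases (Pde), adenylyl cyclases (Adcy) and A-kinase anchoring proteins (Akap) with a number, the catalytic (Prkac) and regulatory (Prkar) subunits of protein kinase A (PKA), the factors Creb1 and Crem, and the cAMP sensors Rapgef3 and Rapgef4. This gave 62 of 48005 gene entries of the counts table, and the rule uses names alone, not measured values. Of the 62, 4 are entries that join a member with a neighbouring gene, namely Pde2a (with Arap1 and the read-through model Gm45837), Akap2 (with Palm2 and Pakap), Pde12 (with Mir7672) and Prkar1b (with Gm15672), and 1, Prkaca-ps1, carries the name of a pseudogene. The cells were microglia, the macrophages that reside in the brain, from mice of the CD1 background. The 3 EV-treated samples received vesicles collected by serial centrifugation from primary neural stem cells of the subventricular zone of CD1 mice, and the 3 control samples received the control treatment. Dose, length of treatment and the content of the control treatment are not given in the sources used. Each library is called by its group and its letter in the titles, and values given as a set of 3 are those of A, B and C in this order. Nothing in the labels says that the letters stand for separate cultures, so the p-values cover the spread among these samples only, some or all of which may be technical.

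Adenylyl cyclases make cyclic AMP (cAMP) when a receptor activates the stimulatory G protein, and phosphodiesterases hydrolyse cAMP, cyclic GMP (cGMP) or both. cAMP releases the catalytic subunits of PKA from its regulatory subunits, which anchoring proteins hold at particular places in the cell. PKA then phosphorylates CREB1, a transcription factor that binds the cAMP response element (CRE), while the EPAC proteins encoded by Rapgef3 and Rapgef4 form a branch that does not need PKA. In macrophages and microglia cAMP is known as a brake on the release of inflammatory cytokines, and PDE4 inhibitors are known to dampen such release.

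Each library held 109744701 to 162544804 counts over all exon bins, and levels are counts scaled to library size (CPM, with TMM factors). All 15 markers of microglia and macrophages were measured and summed to 9034 to 11167 CPM in control and 8223 to 8779.8 CPM in EV-treated libraries. Of these, 10 fell and 2 rose, beside 33.5% and 33% of all entries, and the median log2 fold change was -1.16. A fall of at least 1 on the log2 scale was seen for 8 of them, beside 19.6% of all entries. Csf1r had 775 and 807 CPM on average in control and EV-treated libraries, and Cx3cr1, the fractalkine receptor, 336 and 2.46 CPM. Of the marker lists of other cells, the 10 neural stem cell markers summed to 2790.0 to 4011 CPM in control and 8325 to 9321 CPM in EV-treated libraries, nearly all of it Vim, with Sox2 at 0.136 and 0.0686 CPM. In this list 6 were tested, of which 3 rose and 2 fell, with log2 fold changes of -4.79 to 4.01. The 10 astrocyte markers summed to 14.9 to 20.4 CPM in control and 95.1 to 131 CPM in EV-treated libraries, most of it Slc1a2 and Gja1 in the EV-treated group, with Gfap at 0.0834 and 0.0365 CPM and Gjb6 at 0 in every library. Among these astrocyte markers 7 were tested, of which 4 rose and 1 fell, with log2 fold changes of -2.96 to 9.47. The counts called in both lists stand beside 66.5% of all entries called. The sums were 244 to 468 CPM in control and 48.9 to 58.3 CPM in EV-treated libraries for 11 oligodendrocyte lineage markers. They were 633 to 1494 CPM in control and 148 to 316 CPM in EV-treated libraries for 10 fibroblast and pericyte markers, and 188 to 246 CPM in control and 111 to 169 CPM in EV-treated libraries for 8 endothelial markers. Neuron markers, 10 in the list, summed to 0.615 to 0.772 CPM in control and 2.39 to 2.73 CPM in EV-treated libraries. These lists moved with the treatment, and their part in the results below was not tested. In RNA of a whole culture, fewer cells of a type and less RNA per cell cannot be told apart.

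More phosphodiesterases rose than fell in EV-treated microglia (10 against 5 of 19 tested, median log2 fold change 0.88), no adenylyl cyclase rose and 3 of 7 fell (median -0.64), and PKA subunits and anchoring proteins went both ways. The 10 that rose include the joined entry of Pde2a and Pde6h, whose counts lie opposite exons of another gene. Of the 62 entries, 49 had enough counts to be tested, and edgeR's quasi-likelihood test with Benjamini-Hochberg adjustment called 36 of these 49 at an adjusted p under 0.05, or 73.5%, beside 66.5% of the 16605 entries tested in all. Among the members 19 rose and 17 fell, beside 33% and 33.5% of all entries tested, so the share of members called and its split were near those of the whole table. The groups did not overlap in 38 of the 49 members, beside 71.3% of all entries. A rise by a log2 fold change of at least 1 was seen for 10 members, beside 20.4% of all entries, and a fall of at least that size for 10 members, beside 19.6%. Changes of at least 3 on the log2 scale were found for 6 members, beside 10% of all entries: Pde10a, Pde4b and Pde5a rose, and Pde1c, Adcy7 and Adcy4 fell, the last on few counts. The median log2 fold change was -0.13 over the tested members and -0.02 over all entries. With library totals alone in place of TMM the median of all genes moved to -0.38, and 15 members rose and 20 fell. With upper-quartile scaling it moved to -0.14, and 18 rose and 18 fell. The plot of fold changes by role shows the 49 tested members.

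**Figure D1:**
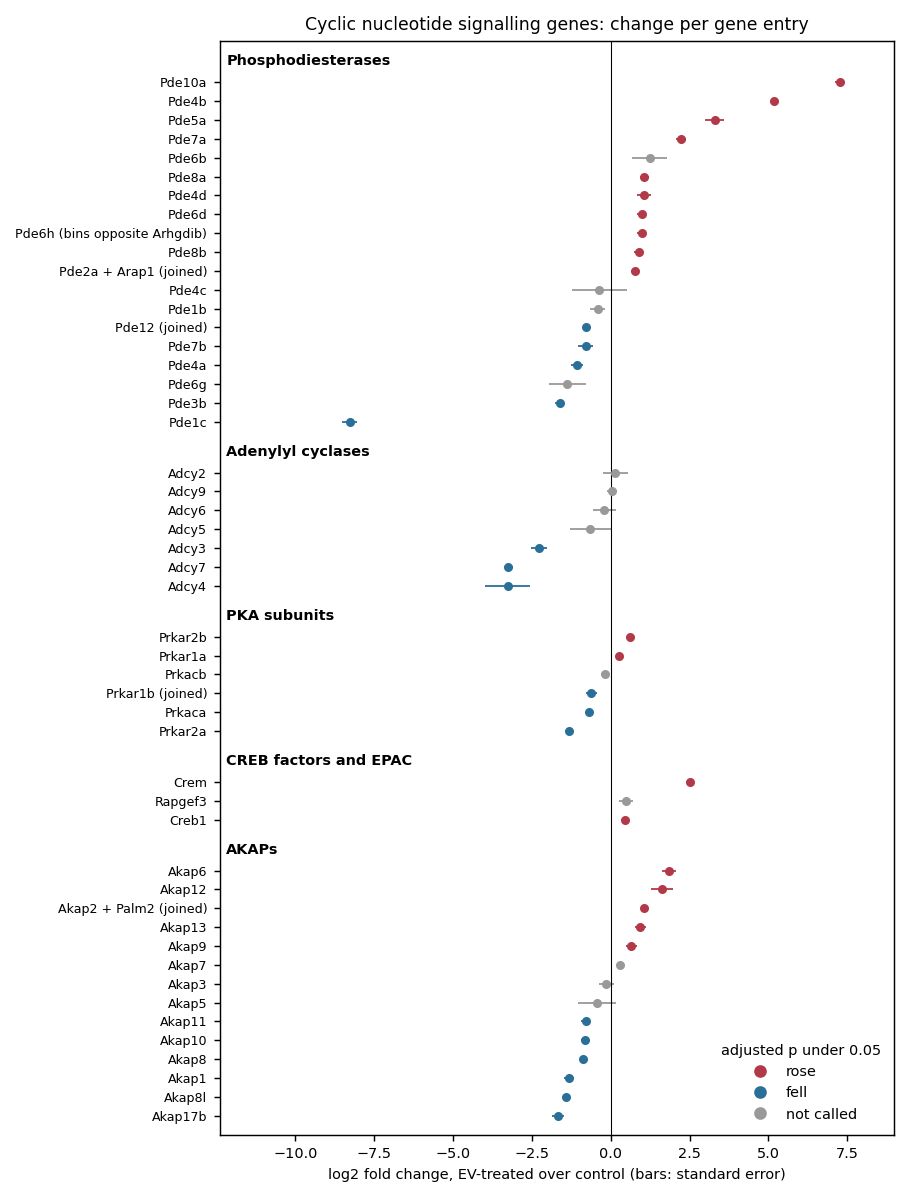
Log2 fold change of EV-treated over control for each of the 49 tested member entries (x axis), grouped by role, with the standard error as a bar; red entries rose, blue entries fell and grey entries were not called at an adjusted p under 0.05. Pde10a (7.27) and Pde4b (5.17) lie farthest to the right and Pde1c (-8.29) farthest to the left, and no adenylyl cyclase is red; the values of Adcy4, with at most 3 counts in each EV-treated library, and of the joined and overlapping entries are uncertain in size.

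Among the phosphodiesterases that act on cAMP alone, 5 of 8 rose and 2 fell, beside 33% and 33.5% of all entries. Of these 8, Pde4b, the PDE4 enzyme best known from macrophages stimulated with bacterial lipopolysaccharide, had the largest change. Pde4b (chr4:102087543-102607259, GRCm38, plus strand) measured 5.34, 5.59 and 5.84 CPM in control A, B and C and 210.2, 196 and 197 CPM in EV-treated A, B and C. Every EV-treated library lay more than an order of magnitude above every control library, and libraries of a group differed little (log2 fold change 5.17, SE 0.11, adjusted p = 2.18e-09, edgeR). Pde4d (chr13:108449948-109953461), its relative, had 5.08, 3.25 and 5.21 CPM in control and 8.52, 7.86 and 11.9 CPM in EV-treated libraries (log2 fold change 1.06, SE 0.22, adjusted p = 0.00193), with no overlap between the groups. Pde4a (chr9:21165714-21213248) went down, from 11.3, 11.4 and 14 CPM in control to 6.09, 4.43 and 6.91 CPM in EV-treated libraries (log2 fold change -1.07, SE 0.18, adjusted p = 0.000485), again without overlap. Pde4c was close to the limit of detection, with 5, 16 and 15 counts in control and 0, 8 and 15 in EV-treated libraries, and was not called.

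Levels per length of all annotated exon bins, used or not, allow a rough comparison of different genes. On this measure the PDE4 genes together had 2.52 ± 0.276 CPM per kilobase in control and 20.6 ± 0.809 in EV-treated libraries (mean ± SD, n = 3 each), as a description with no test. Pde4a held 63.4% of that sum in control libraries and 3.68% in EV-treated ones. The share of Pde4b was 21, 22.9 and 19.5% in control A, B and C and 93, 93.7 and 90.7% in EV-treated A, B and C, so the leading PDE4 gene differed between the groups.

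The exon bins of Pde4b show from which of its annotated starts the counts come. PDE4 genes are known for several promoters, of which the upstream ones give long forms with regulatory UCR domains and the internal ones give short forms. The 22 bins upstream of the first exon of the short transcript held 0, 1 and 0 counts in control and 9, 0 and 4 counts in EV-treated libraries, and 18 of these bins were empty in all 6 libraries. The first exon of the short transcript (chr4:102570095-102570878) held 69, 86 and 95 counts in control and 2052, 1921 and 1931 in EV-treated libraries. The low control level and the high EV-treated level thus both begin at the same annotated exon, as the plot of bins along Pde4b, Pde10a and Pde2a shows. The 250 bases before the RefSeq start (GRCm38.p6) of the short form and those of a start of a long form are printed here, 5′ to 3′ on the plus strand, because nearly all counts of the gene lie downstream of the former start. Capitals mark the motif matches named in the next paragraph, and the windows are chr4:102569810-102570059 and chr4:102421305-102421554.
Pde4b short form: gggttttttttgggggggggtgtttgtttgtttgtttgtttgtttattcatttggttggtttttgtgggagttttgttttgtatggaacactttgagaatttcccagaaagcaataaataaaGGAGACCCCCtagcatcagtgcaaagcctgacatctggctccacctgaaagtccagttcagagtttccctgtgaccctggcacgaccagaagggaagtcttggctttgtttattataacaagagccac
Pde4b long form: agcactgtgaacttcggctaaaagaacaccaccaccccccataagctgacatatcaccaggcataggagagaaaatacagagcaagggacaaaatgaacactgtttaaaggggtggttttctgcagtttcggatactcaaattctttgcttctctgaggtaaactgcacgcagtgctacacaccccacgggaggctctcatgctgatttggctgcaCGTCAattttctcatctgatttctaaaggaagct

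Both strands of each window were searched for the CRE (TGACGTCA), its shorter core (TGACG, which also lies within the full CRE), the AP-1 site (TGANTCA), the NF-kB site in a loose form, the GC box (GGGCGG) and the TATA box (TATAAA). The short-form window holds 1 NF-kB match, which starts 128 bases before the start and is also found in 7.25% of all 32851 promoter windows of RefSeq. The long-form window holds 1 CRE core site, 34 bases before the RefSeq start, a match that 17.8% of all windows hold. In the annotation of the bins this first exon begins earlier, at chr4:102421518. The match therefore lies within that exon, in a bin with 0 counts in every library. Neither window holds a full CRE, which 1.55% of all windows do. A match describes letters alone, and no binding was measured.

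Pde10a (chr17:8525372-8986648), which hydrolyses both cAMP and cGMP and is best known from neurons of the striatum, had the highest fold change of the members. It went from 0.235, 0.173 and 0.207 CPM in control A, B and C to 34.5, 29.5 and 31.7 CPM in EV-treated A, B and C (log2 fold change 7.27, SE 0.17, adjusted p = 2.41e-09). As counts, this was 31, 22 and 39 in control and 4272, 3356 and 4059 in EV-treated libraries, so the control level rests on few counts. The 5 bins before its first exon with counts held 0, 0 and 0 counts in control and 5, 1 and 0 in EV-treated libraries. That exon (chr17:8801693-8802145) held 0, 1 and 8 and 334, 312 and 355.

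Pde2a, whose enzyme is stimulated by cGMP, is hidden in the table behind its neighbour. Its joined entry rose by only 0.76 on the log2 scale (SE 0.12, adjusted p = 0.000405, edgeR), but 88% of the counts of that entry lay in bins on the side of Arap1. The bins of Pde2a that lie in no exon of Arap1 had 4.62, 4.25 and 6.87 CPM in control and 188, 138 and 189 CPM in EV-treated libraries. On these bins, a choice made after the values were seen, the log2 fold change was 5.02 (SE 0.23, adjusted p = 7.59e-08), with EV-treated libraries all far above control libraries. Most of these bins are also exons of the read-through model Gm45837, and in the bins outside it the counts were 15, 8 and 21 in control and 405, 328 and 468 in EV-treated libraries. Of the first exons of Pde2a, the one at chr7:101451316-101451468 held 37, 11 and 35 counts in control and 676, 533 and 689 in EV-treated libraries. The 5 bins before it held 0, 1 and 1 counts in control and 0, 0 and 2 in EV-treated libraries.

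The windows before these starts of Pde10a (chr17:8801495-8801744) and Pde2a (chr7:101451002-101451251), both on the plus strand, are printed beside each other. In both genes, as in Pde4b, nearly all counts lie from one first exon on. The control counts were 31, 22 and 39 for Pde10a and 608, 540 and 1295 for the Pde2a bins outside Arap1. Capitals mark GC boxes on either strand. RefSeq places the start of Pde10a within the exon named above, so the last 52 bases of its window are counted exon.
Pde10a: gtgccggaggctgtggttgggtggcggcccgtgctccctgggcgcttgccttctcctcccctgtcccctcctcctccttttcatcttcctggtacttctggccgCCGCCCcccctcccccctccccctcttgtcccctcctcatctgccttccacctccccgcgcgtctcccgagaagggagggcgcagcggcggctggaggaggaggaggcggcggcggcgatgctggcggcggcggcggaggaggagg
Pde2a: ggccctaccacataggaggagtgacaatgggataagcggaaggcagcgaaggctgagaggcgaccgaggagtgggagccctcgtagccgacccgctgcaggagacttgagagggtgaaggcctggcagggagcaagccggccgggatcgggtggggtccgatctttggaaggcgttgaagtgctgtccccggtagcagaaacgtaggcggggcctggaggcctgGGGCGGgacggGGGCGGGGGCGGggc

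These windows were GC-rich, with 72.8% of G and C for Pde10a and 68% for Pde2a, beside a median of 52.4% over all windows and 43.2% for the Pde4b short form. The Pde10a window holds 1 GC box and the Pde2a window 3, a match found in 32.7% of all windows, and neither holds a CRE, a CRE core site, an AP-1 site, an NF-kB site or a TATA box. Of the 62 members, 49 matched the RefSeq promoter table by symbol, with 91 windows, of which 1, at a start of Prkar1a, holds a full CRE and 15 hold a core site. Crem, Pde3b and Pde7a were among the members without a window, so their starts were not searched for any motif.

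**Figure D2:**
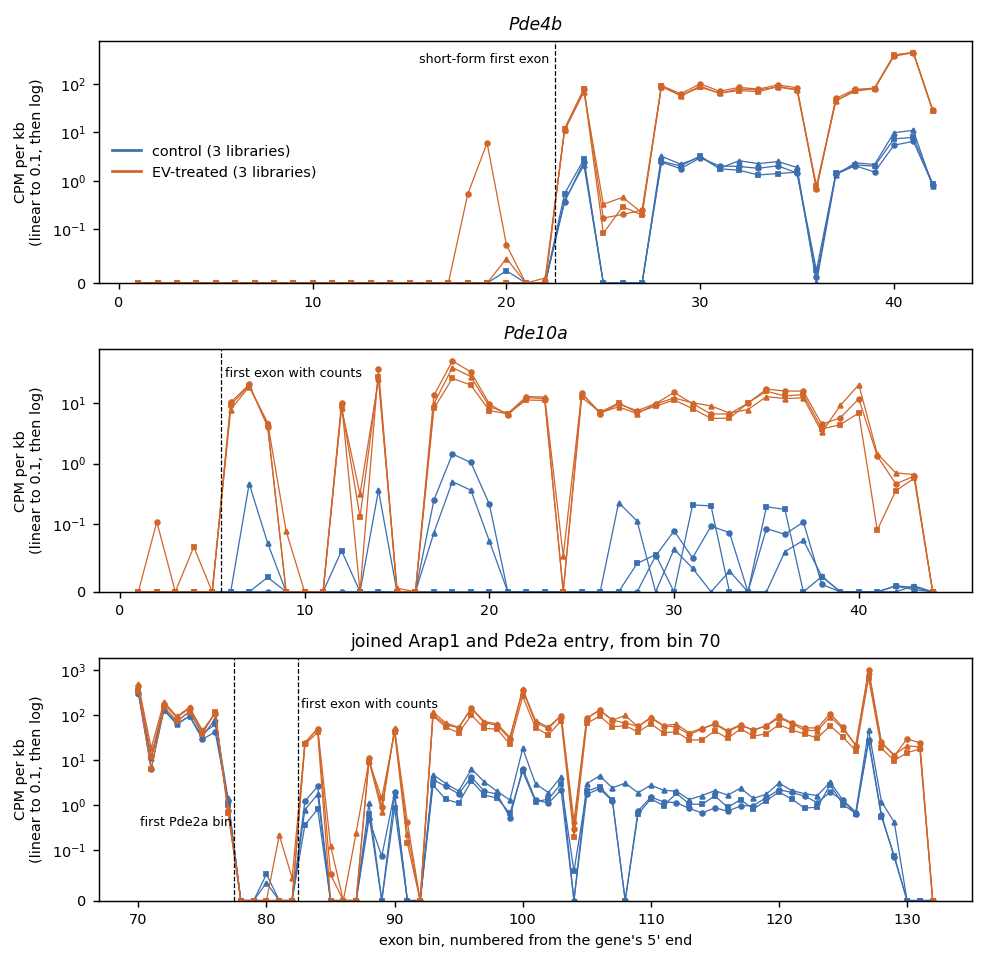
CPM per kilobase in each exon bin, numbered from the 5′ end (x axis), for Pde4b, Pde10a and the joined entry of Arap1 and Pde2a from bin 70 on; each line is 1 library, blue for control and orange for EV-treated, on a scale that is linear to 0.1 and logarithmic above. Apart from a few counts upstream, the EV-treated lines leave 0 at the short-form first exon of Pde4b, at bin 6 of Pde10a and at bin 83 of the Pde2a entry, and downstream of it they lie above the control lines in nearly all bins, the exceptions being bins where EV-treated libraries have few or no counts; the Arap1 bins to the left of the first dashed line in the lowest panel nearly coincide.

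Pde1c (chr6:56069804-56569103), a phosphodiesterase that calcium and calmodulin activate, showed the deepest fall of all members. It had 2674, 2886 and 5573 counts in control A, B and C and 9, 11 and 8 counts in EV-treated A, B and C. On the CPM scale this was 20.3, 22.7 and 29.6 in control and 0.0726, 0.0967 and 0.0625 in EV-treated libraries (log2 fold change -8.29, SE 0.25, adjusted p = 7.08e-09). The transcript was well measured in every control library and close to absent from every EV-treated one. Its relative Pde1b, the most abundant phosphodiesterase per length in control libraries, had 71.3, 48.1 and 54 CPM in control and 33.6, 35.1 and 61.9 CPM in EV-treated libraries. The groups overlapped and the change was not called (log2 fold change -0.41, SE 0.24, adjusted p = 0.153). EV-treated C held the outlying value, and without it Pde1b was called, with a log2 fold change of -0.76 (adjusted p = 0.00395, edgeR). Pde1a had at most 16 counts in any library and was not tested.

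Pde3b (chr7:114415281-114539251), the cGMP-inhibited phosphodiesterase known from insulin signalling in fat, fell from 39.7, 33.8 and 41.3 CPM in control to 12.8, 10.6 and 13.9 CPM in EV-treated libraries without overlap (log2 fold change -1.62, SE 0.13, adjusted p = 4.05e-06). Pde7a (chr3:19223108-19311322), a cAMP-specific enzyme known from T cells, rose from 5.91, 5.9 and 8.14 CPM to 27.5, 32 and 33.7 CPM (log2 fold change 2.22, SE 0.16, adjusted p = 1.39e-06). Its paralog Pde7b went the other way, with 5.17, 6.03 and 9.69 CPM in control and 3.8, 3.43 and 4.83 CPM in EV-treated libraries (log2 fold change -0.79, SE 0.24, adjusted p = 0.0155). The call was lost without EV-treated A (adjusted p = 0.0541) and without EV-treated B (adjusted p = 0.0513). Both PDE8 genes, whose high-affinity cAMP enzymes resist the common inhibitor IBMX, rose. Pde8a (chr7:81213596-81334533) had 25.8, 27.1 and 30.005 CPM in control and 53.9, 49.7 and 70.3 CPM in EV-treated libraries (log2 fold change 1.07, SE 0.14, adjusted p = 1.0e-04), and Pde8b had a log2 fold change of 0.88 (SE 0.15). In each of these 5 genes the groups did not overlap.

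Of the phosphodiesterases that act on cGMP alone or belong to the PDE6 complex of photoreceptors, 5 of 8 were tested and 3 were called, all upwards, beside 33% of all entries that rose. Pde5a, the cGMP enzyme that sildenafil inhibits, had 0.357, 0.299 and 0.207 CPM in control and 3.09, 1.96 and 3.39 CPM in EV-treated libraries, a low level with a clear separation (log2 fold change 3.3, SE 0.30, adjusted p = 8.58e-06). Pde6d, which carries prenylated proteins rather than hydrolysing cGMP, rose by 0.99 on the log2 scale (SE 0.14). The call of Pde6h, an inhibitory subunit of cone photoreceptors, cannot be assigned to that gene: its counts, 6074, 5365 and 6981 in control and 10543, 10605 and 8870 in EV-treated libraries, lay in 2 bins opposite exons of Arhgdib, and its 10 other bins held 2 counts in all. The sources used do not say whether the counting used the strand. Arhgdib itself had a log2 fold change of 1.06 (SE 0.14), beside 0.98 for the Pde6h entry. Pde6g and Pde6b had at most 26 counts in any library and were not called (adjusted p = 0.0658 and 0.0757, edgeR). Pde6g was called without EV-treated B (adjusted p = 0.0355) and Pde6b without control C (adjusted p = 0.0419). Pde12, which despite its name cleaves 2′,5′-oligoadenylates and not cyclic nucleotides, fell by 0.77 on the log2 scale (SE 0.12).

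Summed per length over the bins of each gene alone, the Pde genes other than Pde12 (Pde6d included) had 47.4 ± 3.13 CPM per kilobase in control and 107 ± 8.97 in EV-treated libraries (mean ± SD, n = 3 each, no test). For the 8 genes that act on cAMP alone the sums were 11.9 ± 1.18 and 41.5 ± 2.92 CPM per kilobase. In control libraries the order per length began with Pde1b (19.6 CPM per kilobase), Pde6d (9.51), Pde8a (6.84) and Pde3b (4.2), and the ranges of these 4 over the control libraries did not overlap. In EV-treated libraries it began with Pde2a (27.8 CPM per kilobase), Pde4b (19), Pde6d (18.8), Pde1b (14.7) and Pde8a (14.3). Pde2a lay above Pde4b in every library on this measure, while each of the following neighbours in this order overlapped in range. The length counts all annotated bins, used or not. Of the 10560 bases of Pde4b, 5146 lie in upstream bins that held 14 counts in all. The order of Pde2a and Pde4b may therefore depend on this choice of length, which was not tested. Pde2a and Pde4b, at the head of the EV-treated order, stood at 0.853 and 0.529 CPM per kilobase in control libraries.

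**Figure D3:**
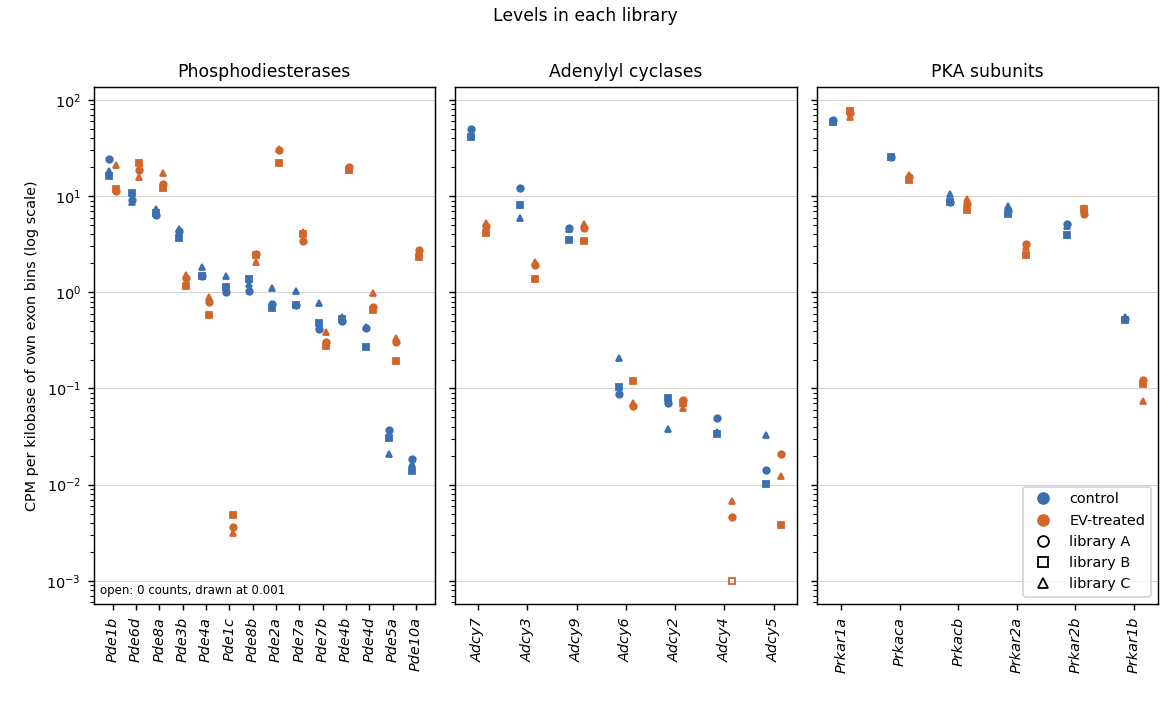
Level of each phosphodiesterase, adenylyl cyclase and PKA subunit in each library, as CPM per kilobase of the gene's own exon bins on a log axis; blue marks are control and orange marks EV-treated libraries, and circles, squares and triangles are libraries A, B and C. Phosphodiesterases under 0.2 and cyclases under 0.015 CPM per kilobase in both group means are left out. The bins of Pde2a include those shared with the read-through model Gm45837. Pde2a, Pde4b and Pde10a lie higher and Pde1c and Adcy7 lower in all 3 EV-treated libraries, while Adcy9 and Prkacb overlap between the groups.

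Of the 7 tested adenylyl cyclases, 3 fell and none rose, beside 33.5% and 33% of all entries. The falls included Adcy7 and Adcy3, the 2 most abundant ones per length in control libraries. Adcy7 (chr8:88272403-88329962), a cyclase that G protein beta-gamma subunits enhance and that is abundant in blood cells, measured 339, 278 and 300.4 CPM in control A, B and C and 33, 28 and 35.6 CPM in EV-treated A, B and C. The groups were far apart (log2 fold change -3.25, SE 0.14, adjusted p = 5.43e-08). Adcy3 (chr12:4133103-4213525), known from olfactory neurons and primary cilia, went from 76, 51.3 and 38.2 CPM to 11.9, 8.98 and 13.1 CPM. The groups did not overlap although the control libraries differed among themselves (log2 fold change -2.28, SE 0.24, adjusted p = 2.48e-05). Adcy4 was near the floor, with 23, 15 and 23 counts in control and 2, 0 and 3 counts in EV-treated libraries. It passed the test (adjusted p = 0.00265, edgeR), but with so few counts no fold is given. Adcy9, a widely expressed cyclase that forskolin activates little, had 24.2, 18.4 and 23.8 CPM in control and 24.1, 18 and 26.4 CPM in EV-treated libraries. The groups overlapped and no change was called (log2 fold change 0.05, SE 0.16, adjusted p = 0.814), and the sign of this value differed between scalings, with -0.07 under upper-quartile scaling. Adcy2, Adcy5 and Adcy6 stayed under 1 CPM in every library and were not called. Adcy1, Adcy8 and Adcy10 had at most 7 counts in any library and were not tested.

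Together the cyclases came to 58.6 ± 7.64 CPM per kilobase in control and 11.1 ± 1.76 in EV-treated libraries (mean ± SD, n = 3 each), as a description with no test. Adcy7 held 77.7% of this sum in control and 43.1% in EV-treated libraries. The share of Adcy9 was 7.27% and 39.3%, and in EV-treated libraries the ranges of Adcy7 and Adcy9 overlapped, with means of 4.78 and 4.4 CPM per kilobase. The plot of summed levels sets this beside the cAMP-specific phosphodiesterases and the regulatory subunits of PKA.

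**Figure D4:**
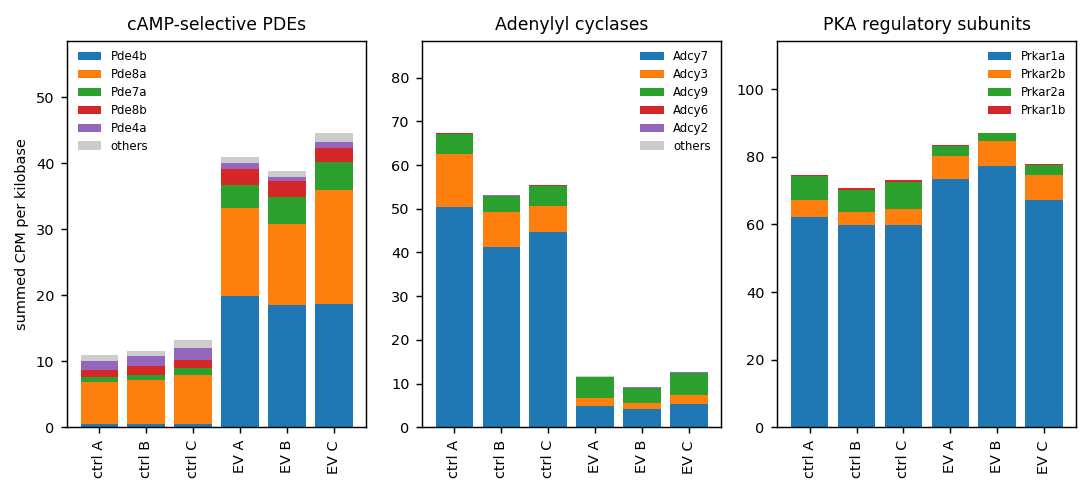
Stacked CPM per kilobase of exon of the genes of 3 families in each of the 6 libraries (bars from 0; colours are genes, the 5 highest and the rest summed). The bars of the cAMP-specific phosphodiesterases are higher in all EV-treated libraries, with most of the gain in Pde4b and Pde8a, the cyclase bars are lower, with most of the loss in Adcy7, and the regulatory subunit bars are dominated by Prkar1a in both groups.

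Of the 6 entries of PKA subunits 2 rose and 3 fell, beside 33% and 33.5% of all entries, and their log2 fold changes ran from -1.32 to 0.63. Prkaca (chr8:83972993-83996443), which encodes the main catalytic subunit, had 62.9, 63.1 and 62.9 CPM in control and 39.8, 36.5 and 40.9 CPM in EV-treated libraries. The control libraries were nearly alike and all EV-treated libraries lay below them (log2 fold change -0.69, SE 0.09, adjusted p = 0.000119). Prkacb, which encodes the second catalytic subunit, had 76.3, 76.9 and 92.5 CPM and 72.8, 63.6 and 81.7 CPM, and the groups overlapped (log2 fold change -0.17, SE 0.13, adjusted p = 0.253). With library totals alone as the scaling it was called, at -0.54. Prkar2a (chr9:108689314-108750436), a type II regulatory subunit that anchoring proteins bind, fell from 44.3, 41.7 and 50.4 CPM to 20.1, 15.5 and 19.1 CPM without overlap (log2 fold change -1.32, SE 0.13, adjusted p = 1.29e-05). Prkar2b, its paralog, went from 18.7, 14.3 and 17.7 CPM to 24.1, 26.7 and 27.5 CPM (log2 fold change 0.63, SE 0.13, adjusted p = 0.0016), a rise that was not called with library totals alone (adjusted p = 0.0926).

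Prkar1a (chr11:109649405-109669656), the most abundant subunit gene per length, had 269, 258 and 258 CPM in control and 318, 334 and 290.4 CPM in EV-treated libraries. The groups did not overlap, but the difference was small and only just past the threshold (log2 fold change 0.26, SE 0.10, adjusted p = 0.0483). It was not called without control A, control B, control C, EV-treated A or EV-treated B (log2 fold changes of 0.22 to 0.26), and its sign turned with library totals alone (-0.11). Prkar1b is the least expressed subunit and its joined entry fell, with -0.62 on the log2 scale (SE 0.18, adjusted p = 0.0107, edgeR), but 43.2% of the counts lay in a first bin that overlaps an exon of Dnaaf5 on the opposite strand. On the bins of Prkar1b alone the levels were 1.82, 1.8 and 1.93 CPM in control and 0.428, 0.387 and 0.258 CPM in EV-treated libraries (log2 fold change -2.37, SE 0.25, adjusted p = 2.54e-05) on a choice of bins made after the values were seen. This fall lies in its last exons, with 238, 223 and 360 counts in control and 38, 20 and 28 in EV-treated libraries. The 23 bins of Prkar1b before them held few counts and went the other way, with 2, 4 and 2 and 15, 10 and 3.

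Per length, the catalytic subunit genes summed to 34.7 ± 1.03 CPM per kilobase in control and 24 ± 1.94 in EV-treated libraries, and the regulatory subunit genes to 72.8 ± 2.05 and 82.8 ± 4.68 (mean ± SD, n = 3 each, no test). Prkar1a held 83.1% and 87.7% of the regulatory sum, and Prkaca 73.1% and 65.5% of the catalytic sum. Prkar2a lay above Prkar2b in every control library and below it in every EV-treated library.

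Both CREB factors rose. Crem, which encodes activators and repressors of CRE-driven transcription from one gene, went from 9.5, 11.6 and 11.7 CPM in control A, B and C to 56.6, 69.9 and 62.6 CPM in EV-treated A, B and C, with no overlap (log2 fold change 2.52, SE 0.13, adjusted p = 1.68e-07). Creb1 (chr1:64532645-64604548) had 27.7, 24 and 31 CPM in control and 35.8, 41.4 and 36.6 CPM in EV-treated libraries (log2 fold change 0.46, SE 0.12, adjusted p = 0.00727). The groups did not overlap for Creb1 either, but with library totals alone its log2 fold change was 0.09 (adjusted p = 0.528) and on its bin with the most counts 0.22 (adjusted p = 0.198). Of the EPAC genes, Rapgef3 had 2.48, 3.7 and 2.02 CPM in control and 3.27, 4.22 and 3.97 CPM in EV-treated libraries and was not called (log2 fold change 0.48, SE 0.23, adjusted p = 0.0913), although it was without control B (adjusted p = 0.0113). Rapgef4 had at most 6 counts in any library and was not tested.

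Of 24 genes known as CREB targets, a list chosen with earlier results of these data known, 21 were tested, of which 17 rose and 4 fell, beside 66.5% of all entries called in either direction. Their median log2 fold change was 2.56, beside -0.02 over all entries. Vegfa, a growth factor of vessels, went from 3.1 to 578 CPM on average (log2 fold change 7.54, SE 0.16), and Nfil3, a transcription factor of immune cells, from 4.94 to 127 CPM (log2 fold change 4.69, SE 0.11). Rgs2, a brake on G protein signalling, had a log2 fold change of -5.16 (SE 0.13) and Egr2 one of -4.86 (SE 0.17). Many of these genes also have other known regulators, and the list does not measure the activity of CREB.

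Anchoring proteins went both ways: of 14 tested, 5 rose and 6 fell (78.6% called, beside 66.5% of all entries). The median log2 fold change was -0.28, and the values ran from -1.67 to 1.86. Akap8l (chr17:32321425-32350581), a nuclear protein related to AKAP8, had 37, 33.7 and 35.1 CPM in control and 13.3, 13.5 and 12.6 CPM in EV-treated libraries (log2 fold change -1.43, SE 0.10, adjusted p = 1.20e-06). Akap1 (chr11:88830792-88864586), which holds PKA at the outer membrane of mitochondria, fell from 15.3, 14.7 and 16.6 CPM to 6.78, 4.97 and 6.86 CPM (log2 fold change -1.33, SE 0.15, adjusted p = 3.41e-05). The joined entry of Akap2 (chr4:57434247-57896984), which binds actin-linked partners, rose from 27.3, 31.3 and 29.5 CPM to 62, 57.4 and 62.6 CPM (log2 fold change 1.05, SE 0.10, adjusted p = 1.05e-05). For these 3 entries the groups lay clearly apart. Other falls were those of Akap17b (-1.67, SE 0.19), the nuclear Akap8 (-0.88, SE 0.11), Akap10 (-0.83, SE 0.11), which binds type I and type II subunits, and Akap11 (-0.80, SE 0.15) on the log2 scale. Other rises were those of Akap6 (1.86, SE 0.22), known from the nuclear envelope of muscle, Akap12 (1.63, SE 0.34), a scaffold at the cell membrane, Akap13 (0.94, SE 0.18), and Akap9 (0.65, SE 0.18), of the Golgi and the centrosome. Akap9 was not called with library totals alone (adjusted p = 0.213).

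Akap13 was the anchoring gene with the most counts, at 262, 165 and 212 CPM in control and 423, 339.7 and 463 CPM in EV-treated libraries. Akap7, whose groups did not overlap at 6.63, 7.11 and 7.05 and 8.6, 8.27 and 8.55 CPM, missed the threshold (log2 fold change 0.29, SE 0.12, adjusted p = 0.0504) and passed it with RLE scaling (adjusted p = 0.0374). Akap3 and Akap5 overlapped between the groups and were not called, Akap14 had at most 10 counts in any library, and Akap4, known from the sperm tail, was at 0 in all 6 libraries. Per length, Akap8l led in control libraries with 17 CPM per kilobase and Akap13 in EV-treated libraries with 19.5.

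Within genes, first exons and other bins shifted against the rest of the gene in several members. edgeR's test of bin usage, which asks whether the bins of a gene changed unequally, called 17 of 42 tested members at an adjusted p under 0.05, beside 29.7% of the 12265 entries tested, and 4.21% of all 198361 bins were called singly. With only bins of at least 50 counts in at least 3 libraries, 11 of 37 tested members were called (29.7%), beside 27.6% of 10316 entries. The smallest p belonged to the joined entries of Pde2a and, further down, of Prkar1b, where the bins of different genes changed by different amounts. Akap13, Prkar1a, Crem and Prkacb followed among single genes.

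Prkacb gave the plainest case, since no change of its total was called while 1 first exon was almost without counts in EV-treated libraries. The first exon at chr3:146781147-146781416, on the minus strand, held 123, 115 and 207 counts in control and 6, 0 and 3 counts in EV-treated libraries, a log2 change relative to the gene of -3.53 (adjusted p = 2.93e-18, edgeR). The first exon farther upstream (chr3:146812638-146812960) held 423, 326 and 652 and 455, 387 and 531 counts (0.32 relative to the gene, adjusted p = 0.117). The first exons of Prkacb are known to give catalytic subunits with different N-termini, and the exon with this change held fewer counts than the upstream one in every library.

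Prkar1a showed a like pattern under a nearly level total. Its most upstream first exon (chr11:109649405-109649527) held 67, 65 and 61 counts in control and 0, 3 and 5 in EV-treated libraries (-3.16 relative to the gene, adjusted p = 6.90e-18, edgeR). The next exon (chr11:109650441-109650624) went from 554, 595 and 716 to 225, 220 and 181 counts, with relative changes of -1.19 and -0.998 in its pair of bins (adjusted p = 1.46e-13 and 5.12e-11). Only the second bin of this pair, of 50 bases, is an annotated first exon, with 308, 315 and 403 and 128, 135 and 110 counts. The first exon nearest to the shared exons (chr11:109650921-109651073) held 1575, 1313 and 1945 and 1536, 1524 and 1460 counts, a relative change of -0.05 that was not called. Relative to the gene, the 2 upstream exons thus fell, while no change was called for the nearest first exon, which held most of the first-exon counts in both groups.

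Crem is known to have an internal promoter that gives the short repressors called ICER. Among its bins, 1 of 51 bases in an internal first exon held 15, 20 and 23 counts in control and 200, 205 and 194 in EV-treated libraries. The relative log2 change of this bin was 0.77 (adjusted p = 0.00211, edgeR). With its other bins, this exon of Crem held 31, 35 and 35 and 307, 354 and 309 counts. The 8 bins of its 5′ first exons, all opposite the gene Gm6225 on the other strand, so that their counts cannot be told apart from those of Gm6225, together held 68, 97 and 103 and 151, 134 and 159 counts, and the bins called among them had relative changes of -1.33 to -0.92 (largest adjusted p = 0.00743). In a second internal first exon, further downstream, the largest bin held 69, 79 and 96 and 111, 149 and 161 counts (-1.02, adjusted p = 7.30e-08). The whole of that exon held 73, 80 and 98 and 125, 169 and 191. The upstream internal exon therefore rose more than the gene as a whole, while the bins of the 5′ exons and the second internal exon rose less. Whether these transcripts are ICER was not tested.

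In Akap13 the 24 bins of the 5′ part summed to 3521, 1705 and 4640 counts in control and 1956, 1403 and 2360 in EV-treated libraries, and the 43 bins from the middle to the 3′ end to 31030, 19198 and 35388 and 50431, 37245 and 56988. These parts were not tested as groups. Scaled to CPM, the 5′ part had 26.7, 13.4 and 24.6 in control and 15.8, 12.3 and 18.4 in EV-treated libraries. The groups overlapped there, with means of 21.6 and 15.5. The rest went from 192 to 393 on average, so the rise of the gene lies in its middle and 3′ part. An internal first exon (chr7:75701997-75702152) fell against this, from 100, 74 and 128 to 10, 5 and 22 counts (-2.55 relative to the gene, adjusted p = 3.39e-10, edgeR). In Pde4d, chosen after its values were seen, an exon upstream of the short-form first exon held 21, 11 and 17 counts in control and 0, 1 and 0 in EV-treated libraries, and its change relative to the gene was called (adjusted p = 4.87e-08). With so few counts no size is given.

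**Figure D5:**
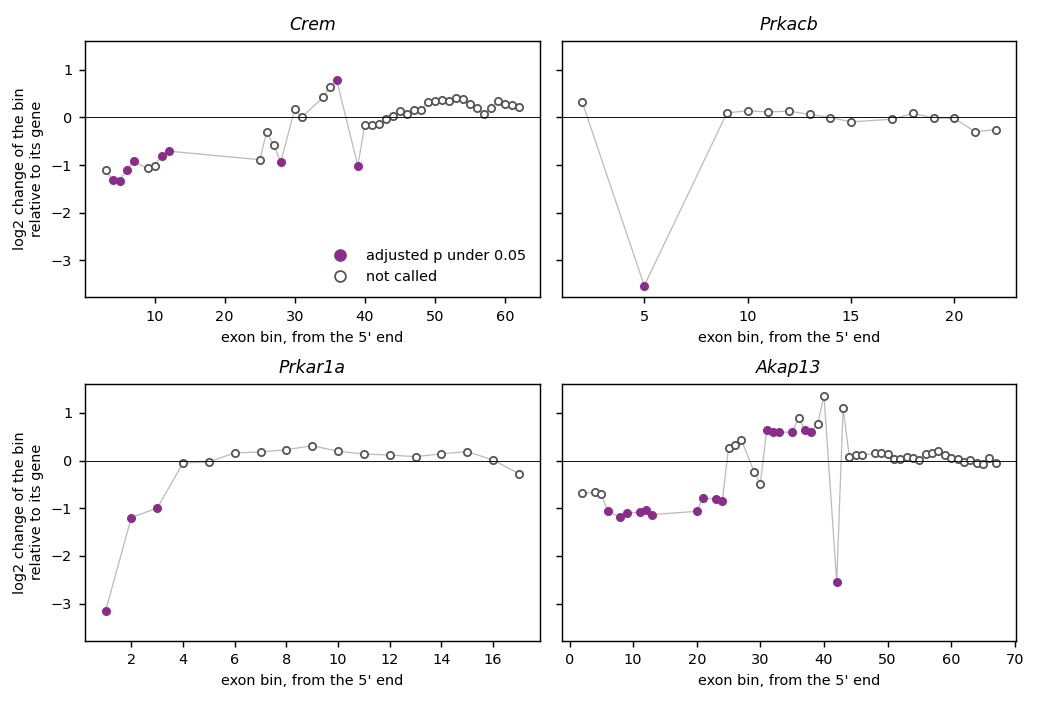
Log2 change of each tested exon bin relative to its gene (y axis) against the bin's number from the 5′ end (x axis) in Crem, Prkacb, Prkar1a and Akap13; filled points have an adjusted p under 0.05 and open points do not. In Prkacb 1 first exon at -3.53, in Prkar1a the first 3 bins, and in Akap13 the 5′ bins and 1 internal first exon at -2.55 lie below the rest, and in Crem the 5′ bins lie below 0 and 1 internal first exon above it.

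Genes around the members, from lists also chosen with earlier results of these data known, changed in both directions. Of 21 receptors that raise cAMP through the stimulatory G protein, 13 were tested, of which 6 rose and 5 fell (median log2 fold change 0.05). The adenosine receptor gene Adora2a went from 0.412 to 74.3 CPM on average (7.5, SE 0.13). The incretin receptor gene Gipr rose from 0.146 to 195 CPM (10.32, SE 0.33). Ptger4, the EP4 receptor of prostaglandin E2, fell (-1.88, SE 0.15), as did the histamine receptor gene Hrh2 (-4.23, SE 0.64). Of 13 receptors that act through the inhibitory G protein 10 were tested, of which 4 rose and 6 fell (median -3.2), and these shares stand beside 66.5% of all entries called. Hcar2, the niacin receptor, rose to 282 CPM on average (7.6, SE 0.18) and the adrenergic receptor gene Adra2a to 9.52 CPM (8.3, SE 0.42), whereas the cannabinoid receptor gene Cnr2 (-5.87, SE 0.25) and Cx3cr1 (-7.09, SE 0.31) fell. Among 7 alpha subunits of G proteins, 4 rose and 2 fell, beside 33% and 33.5% of all entries. The 7 genes summed to 2636 to 3005 CPM in control and 2434 to 2741 CPM in EV-treated libraries, so the ranges overlapped. The rises included Gnaz (5.23, SE 0.56) and Gnai3 (0.72, SE 0.10), both inhibitory. The falls were Gnal (-0.81, SE 0.15) and Gnas (-0.42, SE 0.13), both stimulatory. The call of Gnas was lost without control A (adjusted p = 0.0527, edgeR) and without EV-treated C (adjusted p = 0.0588).

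Of 13 genes of cGMP synthesis and its kinases 7 were tested, of which 3 rose and 2 fell: the receptor cyclase gene Gucy2g (4.99, SE 0.40) and the kinase gene Prkg2 (2.52, SE 0.29) rose, and Npr1 (-2.31, SE 0.23), a natriuretic peptide receptor, and Prkg1 (-2.11, SE 0.25) fell. Of 7 entries of PKA inhibitors and relatives 5 were tested. The PKA inhibitor genes Pkia (-2.84, SE 0.46) and Pkib (-1.09, SE 0.10) fell, and Prkx (0.79, SE 0.09), a kinase close to PKA, rose. The joined entry of Popdc2, a cAMP-binding Popeye protein, with Cox17 also rose (1.65, SE 0.15), and its counts cannot be assigned to either gene. Of 16 CREB coactivators and relatives 8 rose and 2 fell (62.5% called). Each count of called genes in this paragraph stands beside 66.5% of all entries. Sik1 (2.95, SE 0.11), a kinase that restrains CREB coactivators, and the joined entry of Creb5 (3.44, SE 0.15) rose, and Creb3 (-0.72, SE 0.16), a factor of the endoplasmic reticulum, and its relative Creb3l2 (-0.58, SE 0.19) fell. Creb3l2 overlapped between the groups and was not called without control A, control C, EV-treated A or EV-treated B (adjusted p = 0.0526 to 0.0776, edgeR). Of 12 genes for cAMP export and cyclic nucleotide channels only 4 were tested. Abcc5 (3.88, SE 0.15), an exporter of cyclic nucleotides, and Hcn2 (1.26, SE 0.20) rose and Abcc4 (-0.86, SE 0.19), the other exporter, fell. On the bin with the most counts Abcc4 was not called (adjusted p = 0.0577), nor was Creb3 (adjusted p = 0.523, edgeR). Of 20 other genes listed as like anchoring proteins 17 were tested, of which 8 rose and 2 fell. Acbd3 (0.91, SE 0.09) and Lrba (1.29, SE 0.16) are rising and Neurl1a (-3.05, SE 0.21) and Nbea (-0.76, SE 0.23) falling examples. Whether each of the listed genes anchors PKA was not tested.

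The 13 members that were not tested had too few counts for a comparison. They were Pde1a, Pde3a, Pde6a, Pde6c, Pde9a, Pde11a, Adcy1, Adcy8, Adcy10, Akap4, Akap14, Rapgef4 and Prkaca-ps1. Pde11a had the highest value among them, 30 counts in EV-treated A, and 6 and 19 counts in EV-treated B and C, beside 1, 8 and 1 counts in control libraries.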

How the data were processed

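RNA of cultured microglia was extracted with Trizol, selected for polyA and made into libraries with the NEBNext Ultra kit, per the labels' protocols; reads were trimmed with Trimmomatic 0.36 and handled with STAR, Subread and DESeq2 on GRCm38, per the submitters' processing notes. The deposited values are raw counts per exon bin, 425461 bins in 48005 gene entries, per the file headers. Reads across bin borders may enter more than 1 bin, since the library totals of 109744701 to 162544804 exceed the number of reads that the series text states. The strand setting of the counting is not given in the sources used here, so counts of overlapping and antisense genes cannot be told apart.

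Bins were summed per gene entry and named from GENCODE vM21. The 16605 entries that passed edgeR's filterByExpr were TMM-scaled and compared between 3 control and 3 EV-treated samples with the quasi-likelihood test of edgeR 4.0.16 in R 4.3.3, with Benjamini-Hochberg adjustment over all entries and a threshold of 0.05. Bin usage within an entry was tested with edgeR's diffSpliceDGE. Both tests were first tested on simulated counts with known changes. At a log2 change of 1 the gene test recovered 81% of 100 changed genes and the bin test 44% of 100 changed bins. At a log2 change of 3 both recovered 100%. False calls were 12 of 16689 entries in the gene test and 21 of 12202 in the bin test. A bin that was not called may therefore still have changed by 1 on the log2 scale. Counts of up to 3 in a library were treated as the floor.

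The members and gene lists were chosen with earlier results of these data known. Given in full are members that passed the test, averaged at least 1 on the log2 CPM scale and changed by at least 1 on the log2 scale (at most 20, by smallest p), and Creb1, Crem, Prkaca and Prkar1a in any case; of each list up to 2 rising and 2 falling genes are named, and for bin usage up to 6 members by smallest p. Values on the bins of a member alone, and genes named outside this rule, were added after the data were seen. Alternatives were other scalings and filters, DESeq2 1.42.0, limma-voom (limma 3.58.1), a replicate block, each library left out, the bin with the most counts, and entries of single genes.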

Additional observations from a re-analysis of the deposited data

How the results depend on the processing

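DESeq2, limma-voom, RLE scaling, upper-quartile scaling, library totals alone, no filter, a stricter filter, the bin with the most counts and entries of single genes alone gave 15 to 20 members that rose and 15 to 20 that fell. Leaving out 1 library gave 18 to 20 and 16 to 18 (5062 to 5439 and 5128 to 5544 of all entries), 12 to 18 members with changed bin usage and 2506 to 3780 gene entries with changed exon bin usage; with bins of at least 50 counts in at least 3 libraries there were 11 such members of 37 tested, beside 27.6% of all entries tested that way. The sign turned for Adcy9 under upper-quartile scaling (-0.0724), library totals alone (-0.31), no filter (-0.0245) and the bin with the most counts (-0.29), and leaving out 1 library gave -0.0912 to 0.197. It turned with library totals alone for Prkar1a (-0.11), Akap7 (-0.0777) and Adcy2 (-0.22), and with the bin with the most counts for Prkar1a (-0.0539), Adcy5 (0.37), Adcy6 (0.67) and the Prkar1b entry (0.43, a bin opposite Dnaaf5). Leaving out 1 library gave -0.13 to 0.30 for Adcy2, -1.25 to 0.00604 for Adcy5, -0.40 to 0.19 for Adcy6 and -1.24 to 0.19 for Pde4c, all of them low in counts. Apart from the values that follow from scaling or from the choice of bin, the cause was not tested.

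The letters A, B and C were not taken to pair the samples: the deviations of same-lettered samples from their group means correlated at 0.035 for A, 0.167 for B and 0.21 for C, although each sample correlated best with its own letter. With the letter as a replicate block, 5758 entries rose and 5851 fell, 20 members rose and 17 fell, and 18 members with changed exon bin usage and 4025 gene entries with changed exon bin usage were called; Rapgef3 was the member added.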

Other observations

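Pde4d counts shifted along the gene. The 33 bins before its short-form first exon held 150, 77 and 173 counts in control and 26, 39 and 83 counts in EV-treated libraries. The short-form first exon held 46, 23 and 67 and 88, 67 and 156. The last of its 3 bins lies in 10 annotated transcripts, so other forms share it, and held 27, 16 and 40 and 43, 24 and 64 of these counts. In mean CPM the EV-treated group was lower upstream and higher from that exon on. The groups of bins were chosen after the data were seen and were not tested as groups. In the joined Prkar1b entry, the first bin, opposite Dnaaf5, held 109, 114 and 194 counts in control and 120, 126 and 184 in EV-treated libraries. The Arap1 side of the Pde2a entry averaged 506 in control and 693 in EV-treated libraries on the CPM scale. The bins of Akap2 that lie in no other gene's exon had a log2 fold change of 1.27 (SE 0.24), beside 1.05 for the joined entry.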
